A study of Sus scrofa with 12 samples.

Results

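The comparison set coronary artery tissue around a zotarolimus-eluting stent (ZES) against tissue around a bare metal stent (BMS) in Yorkshire farm pigs, 28 days after angioplasty and implantation. Its members were the 4 arrays whose labels give a zotarolimus-eluting stent and the 4 whose labels give a bare metal stent, which makes 8 of the 12 arrays of the series. Each side came from 2 pigs with 2 segments each, 1 from the right coronary artery (RCA) and 1 from the left anterior descending artery (LAD). Arrays 1 and 2 of a stent type are the RCA and the LAD of one pig, and arrays 3 and 4 those of the other. The other 4 arrays, from 2 pigs with a sirolimus-eluting stent (SES), were used only for the spread between arrays and for the direct test of ZES against SES. All groups shared the balloon injury and the metal stent, so the BMS group is a stented and not an untouched artery, and an unstented artery was not analysed here. The sources used here do not give the ages of the pigs or the amount of drug on the stents, and the series title speaks of overlapping stents, which the labels of the samples do not describe further. Tissue was dissected from the stent by hand, so each array mixes all cells of the wall.

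Zotarolimus is an analog of sirolimus in which a tetrazole ring replaces a hydroxyl group. Both drugs bind the immunophilin FKBP12, the product of FKBP1A, and the complex inhibits the kinase mTOR, which slows cell growth and division. In a healing stented artery, smooth muscle cells divide and lay down matrix, endothelium grows back over the struts, and leukocytes enter the wall. VWF marks endothelium and platelets, PDPN lymphatic endothelium, mesothelium and some stromal cells, CD3E T cells, S100A8 neutrophils and monocytes, and PLAC8 several kinds of leukocyte.

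Values are log2 signals, so a difference of 1 is a doubling, and each difference is the mean of the 4 ZES arrays minus the mean of the 4 BMS arrays, with its standard error (SE) from limma. No probe set passed the threshold of an adjusted p under 0.05: limma called 0 of 16799 (0%), and the smallest adjusted p was 0.116. The count depended on the pigs: limma called 71 probe sets (61 higher, 10 lower) without the BMS pig of arrays 3 and 4, 4 without the other BMS pig, 5 without the ZES pig of arrays 1 and 2, and 11 without the other ZES pig. Leaving out BMS 3 gave 4 calls, BMS 4 gave 2, ZES 1 gave 4, and each of the other 5 arrays gave 0. At an unadjusted p under 0.05, 793 probe sets were higher (4.72% of those tested) and 717 were lower (4.27%). When each array was centred on its median, these counts were 592 and 938. Single arrays separated fully for few probe sets: all 4 ZES arrays lay above all 4 BMS arrays for 266 (1.58%) and below them for 375 (2.23%). Among the 5793 genes with a name, 280 (4.83%) were higher and 169 (2.92%) lower at an unadjusted p under 0.05. All 4 ZES arrays lay above all BMS arrays for 97 genes (1.67%) and below them for 94 (1.62%). The median difference over all named genes was 0.01. The differences below are therefore given as measured values with their errors, and none of those between ZES and BMS passed the adjusted test. The p-values measure the spread between arrays from 2 pigs a side; on pig means alone an exact permutation test has 6 arrangements and cannot go below 0.333.

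Segments of one pig differed from each other at many probe sets. Between the RCA and the LAD of the pig that gave ZES 1 and ZES 2, 49.3% of probe sets differed by more than 2-fold, and between those of the other ZES pig 32.6% did. In the BMS pigs these shares were 38.5% and 44.0%. These are differences between single arrays, and those between pigs are differences between means of 2 arrays, so the shares are not on one footing. Between the mean of a ZES pig and the mean of a BMS pig, the share ran from 27.5% to 35.7% over the 4 pairs of pigs. Between the 2 pigs of one stent type it was 33.2% for BMS and 27.8% for ZES.

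Several array controls moved with the stent type. The background level, taken as the 95th percentile of 59 control probe sets whose target was never added, was 4.19 to 5.16 on the ZES arrays and 5.27 to 5.96 on the BMS arrays (exact permutation test over 70 arrangements, two-sided, p = 0.0286, the smallest it can give; 0.0952 adjusted over 10 controls). Between 485 and 1138 probe sets were listed at 0 on ZES arrays and between 41 and 277 on BMS arrays, with the same p. The hybridisation spike-ins read 15.30 ± 0.58 (SD, n = 4) with ZES and 16.30 ± 0.38 (SD, n = 4) with BMS (exact p = 0.0571). These exact tests take the 8 arrays as independent, although they are pairs of segments from 4 pigs. On pig means the exact test cannot go below 0.333. ZES 1 had the lowest spike-in signal of the 8 arrays (14.6), the most probe sets at 0 and the lowest 28S rRNA signal (6.95). ZES 2, from the same pig, had the highest 28S signal (12.74), with BMS 1 next (12.03) and the other 5 arrays between 9.17 and 9.71. The log2 difference between the 3' and 5' ends of GAPDH was 3.64 to 4.63 with BMS and 3.44 to 3.91 with ZES. With SES it was 2.33 to 3.02, below every ZES array. In the direct test of ZES against SES, the stent and this control therefore cannot be told apart. To see how far the gene results moved with these controls, the spike-in level or the GAPDH difference was added to the model. A further setting raised low values to one background. The spike-in level ran from 15.74 to 16.52 with BMS and from 14.6 to 15.91 with ZES, so it largely followed the stent type. Adding it to the model can remove a stent difference along with a technical one, and these cannot be told apart. Of 98 genes followed through these settings, 48 changed sign or moved by more than 1.5 times with the spike-in level, 9 with the GAPDH difference and 23 with low values raised.

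**Figure D1:**
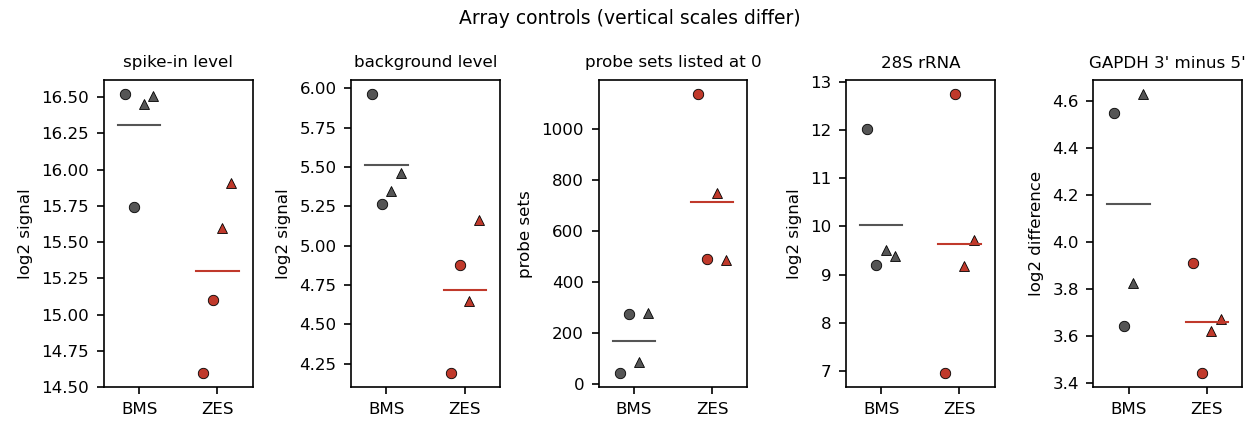
Array controls on the 4 BMS and the 4 ZES arrays. Each point is 1 array, circles are the pig of arrays 1 and 2, triangles the pig of arrays 3 and 4, and the horizontal line is the mean; the vertical axes are log2 signal, number of probe sets listed at 0, or a log2 difference between the 3' and 5' ends of GAPDH. The background level and the number of probe sets at 0 do not overlap between the stent types, and ZES 1 and ZES 2 lie at opposite ends for 28S rRNA.

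PLAC8, an immunoglobulin heavy chain locus and a locus beside antigen receptor segments had the smallest p among named genes. PLAC8, a small cysteine-rich protein of leukocytes, read 12.004 and 12.10 in one BMS pig and 9.45 and 10.25 in the other, against 8.59 and 6.18 in one ZES pig and 8.20 and 7.81 in the other. Every ZES array lay below every BMS array, and each ZES pig lay below each BMS pig, by 1.85 to 4.67. The difference was -3.26 ± 0.57 (SE), a level 9.57-fold higher with BMS (limma, adjusted p = 0.116). PLAC8 was also lower with ZES than with SES, by the direct test (-3.34 ± 0.57, SE; limma, adjusted p = 0.0452), while SES and BMS differed by 0.08. It is 1 of 12 probe sets called between the drug stents (0.0714% of those tested). This call was near the threshold and held in 13 of 30 alternatives, with an adjusted p from 0.00301 to 0.710, and it was lost without ZES 2 (0.135), ZES 3 (0.0790), ZES 4 (0.0507), SES 1 (0.112), SES 2 (0.119) or SES 3 (0.231).

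LOC396781, for which RefSeq lists the older name IGHG, the heavy chain of immunoglobulin G, read 10.05 and 10.31 in one BMS pig and 12.72 and 13.60 in the other. With ZES it read 13.84 and 15.94 in one pig and 16.13 and 16.83 in the other. The lowest ZES array lay just above the highest BMS array, and the difference was 4.01 ± 0.73 (SE, 4 arrays a side; limma, adjusted p = 0.116), a 16.1-fold higher level. LOC100152327 is a locus without a symbol; of its 16 nearest neighbours in the RefSeq table (Sscrofa11.1), 4 are V segments and 1 is a constant region, the building blocks of an antigen receptor. It read 7.11, 8.33, 10.08 and 10.40 with BMS and 10.55, 14.88, 12.96 and 14.26 with ZES. The groups did not overlap, but ZES 1 lay only 0.15 above the highest BMS array. The difference was 4.18 ± 0.76 (SE; limma, adjusted p = 0.116), and against SES, whose arrays read 8.49 to 9.13, it was 4.29 ± 0.76 (SE; limma, adjusted p = 0.0461). That call held in 10 of 30 alternatives (adjusted p 0.00214 to 0.710) and without BMS 1, BMS 4, ZES 1 or SES 4, and was lost without each of the other 8 arrays (adjusted p 0.0578 to 0.231).

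Known genes of antibody-secreting cells were less even across pigs. JCHAIN, which joins the subunits of secreted IgM and IgA, read 13.78 on ZES 2 but 9.81 to 10.91 on the other ZES arrays, and 7.75 to 11.02 with BMS. Its groups overlapped, and the difference was 1.59 ± 0.71 (SE; limma, unadjusted p = 0.0383, adjusted p = 0.527). TNFRSF17, the plasma cell receptor BCMA, was 2.63 ± 1.15 (SE) higher with ZES and overlapped too, and with low values raised it differed by 0.75. Of 21 B and plasma cell markers 5 were measured, 4 higher and 1 lower, with a median difference of 0.23.

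**Figure D2:**
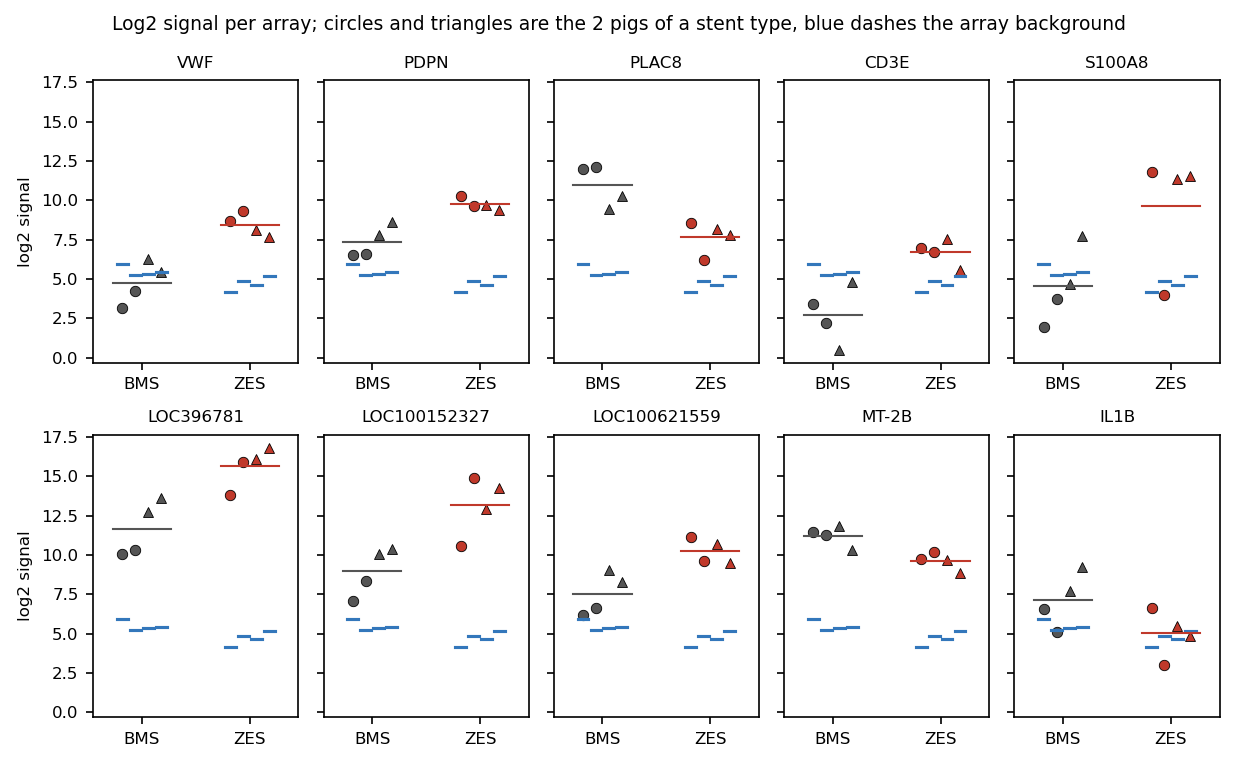
Log2 signal of 10 genes on the 4 BMS arrays (grey) and the 4 ZES arrays (red), 1 point per array, with circles for the pig of arrays 1 and 2 and triangles for the pig of arrays 3 and 4. The horizontal line is the group mean, and the short blue dashes are the background level of each array; CD3E is at or below background on all 4 BMS arrays, and S100A8 is low on ZES 2 alone among the ZES arrays.

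The T cell genes CD3E and LCK were at or near background with BMS, and on every ZES array above that array's own, lower background. CD3E, a subunit of the signalling part of the T cell receptor, read 3.39, 2.19, 0.50 and 4.83 with BMS, not above the background of any of these arrays. With ZES it read 6.97, 6.73, 7.54 and 5.60, above background on all 4 arrays and above all BMS arrays. The fitted difference was 3.98 ± 0.83 (SE; limma, adjusted p = 0.256). With every value below the highest background (5.96, on BMS 1) raised to it, the difference was 0.84. ZES 4 lies below that level, so the groups then no longer lay fully apart.

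LCK, the kinase that acts first after the T cell receptor, read 5.34, 3.65, 5.73 and 4.23 with BMS, below background on 3 arrays, and 8.59, 7.15, 7.41 and 6.27 with ZES. Every ZES array lay above every BMS array, and the difference was 2.61 ± 0.98 (SE; limma, adjusted p = 0.456). It was 1.39 with low values raised to the highest background and 1.04 with the spike-in level in the model. IL7R, the receptor for interleukin 7 on naive and memory T cells, was 3.49 ± 1.05 (SE) higher, but its groups overlapped because BMS 4 read 7.23, and with low values raised the difference was 1.27. LOC100621559, a locus whose 16 nearest neighbours in RefSeq include 4 V segments and 1 constant region beside EPHB6 and PRSS2, has 8 probe sets on the array, and the difference was above 0 in all of them, from 0.61 to 3.37. The brightest on average read 6.20, 6.65, 9.04 and 8.32 with BMS and 11.18, 9.66, 10.73 and 9.497 with ZES, which did not overlap (2.71 ± 0.57, SE; limma, adjusted p = 0.265). With SES it read 10.14 to 11.63, and ZES and SES differed by -0.56 (95% interval -1.77 to 0.65).

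Over the list of T and NK cell markers, 12 of 39 genes were measured. Of these, 9 were higher and 3 lower with ZES, with a median difference of 0.96, against 0.01 over all named genes. The unadjusted test passed for 3 upwards and 0 downwards, beside 4.83% and 2.92% of all named genes. CD3E, LCK and CD3G, another chain of the receptor complex, were above BMS on all 4 arrays, that is 3 of 12 beside 1.67% of all named genes. For CD3E and CD3G this did not hold with low values raised to the highest background. CD3G was not above background on 3 BMS arrays, and with ZES it averaged 6.10 ± 0.59 (SD, n = 4), close to that level. CD2, CD27 and CD8A were lower, by 0.59, 0.53 and 0.44. With low values raised to the highest background the median was 0.36, and with the spike-in level in the model it was 0.38. In bulk tissue, fewer cells of a type and less RNA per cell cannot be told apart.

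Endothelial genes split. VWF, the clotting factor carrier stored in endothelial cells and platelets, read 3.14, 4.22, 6.24 and 5.46 with BMS, below background on 2 arrays, and 8.68, 9.35, 8.11 and 7.69 with ZES. The groups did not overlap, and the 4 differences between single pigs ran from 2.05 to 5.34. The mean difference was 3.69 ± 0.89 (SE; limma, adjusted p = 0.340), and it was 3.71 in the RCA and 3.68 in the LAD. With the spike-in level in the model it was 2.36, and with low values raised 2.42. CDH5, the cadherin of endothelial junctions, read 6.07, 5.87, 2.91 and 4.89 with BMS and 6.94, 7.11, 6.43 and 6.70 with ZES, again without overlap (1.86 ± 0.69, SE; limma, adjusted p = 0.453). CDH5 was not above background on 2 BMS arrays, and with low values raised it differed by 0.80.

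The angiopoietin co-receptor TIE1 was 3.18 ± 1.20 (SE) higher, but BMS 1 read 8.12, above all ZES arrays, while BMS 2 from the same pig read 0.68. With low values raised it differed by 0.99. PECAM1, the adhesion molecule CD31, was brighter than both and close between groups (0.46 ± 0.37, SE, 95% interval -0.33 to 1.25). NOTCH4, a Notch receptor of endothelium, was not above background on any BMS array (0.96 to 5.18) and was above it on all 4 ZES arrays (6.26 to 8.03), with a fitted difference of 4.04 (limma, adjusted p = 0.265). With low values raised to the highest background, NOTCH4 differed by 1.11. Of 30 endothelial markers 22 were measured, 11 higher and 11 lower, with a median of -0.04. At an unadjusted p under 0.05, 4 of the 22 were higher (VWF, CDH5, TIE1 and ICAM2) and 1 was lower (PROCR, the protein C receptor, -1.28), beside 4.83% and 2.92% of all named genes. PROCR differed by -0.24 with the spike-in level in the model.

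PDPN, a mucin-like glycoprotein, read 6.55, 6.59, 7.77 and 8.61 with BMS and 10.28, 9.64, 9.70 and 9.38 with ZES. No ZES array overlapped with BMS, and the difference was 2.37 ± 0.48 (SE; limma, adjusted p = 0.219). ZES and SES differed by 0.30 (95% interval -0.73 to 1.32). CCL21, the chemokine that lymphatic endothelium makes to draw T cells and dendritic cells, was 10.46 and 10.84 in one ZES pig and 8.70 and 8.46 in the other, the latter pair within the BMS range of 6.08 to 8.90. LYVE1, the hyaluronan receptor of lymphatics and some macrophages, was lower by 0.68 ± 0.57 (SE). These 3 were the lymphatic markers measured of 10, 2 higher and 1 lower.

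S100A8, a calcium-binding protein that makes up much of the neutrophil cytosol, split the ZES arrays. It read 11.77, 11.39 and 11.56 on ZES 1, 3 and 4 and 3.97, below background, on ZES 2, although ZES 1 and ZES 2 came from one pig. With BMS it read 1.92, 3.75, 4.71 and 7.74, not above background on 3 of these arrays. The difference was 5.14 ± 1.58 (SE; limma, adjusted p = 0.405), and 7.04 without ZES 2. Over 26 alternatives the S100A8 difference ran from 3.34 to 7.04. MMP9, the gelatinase of neutrophils and macrophages, was also lowest on ZES 2 among the ZES arrays, with 8.89 there, 14.42, 12.73 and 12.25 on the other 3, and 8.50 to 11.88 with BMS.

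TREM1, a receptor of neutrophils and monocytes, went the other way: it read 7.09, 5.30, 5.70 and 5.94 with BMS and was not above background on any ZES array (0.30 to 3.62). The fitted difference was -3.80 (limma, adjusted p = 0.360), and with low values raised to the highest background it was -0.28. Of 29 neutrophil markers 11 were measured, 8 higher and 3 lower, with a median difference of 1.04. At an unadjusted p under 0.05, 5 were higher, S100A8, S100A9 (2.64), S100A12 (2.88), MMP9 (2.39) and ARG1 (3.21), and TREM1 was lower, beside 4.83% and 2.92% of all named genes. The count of 5 was 2 without ZES 1, ZES 3 or ZES 4 each, 3 without BMS 1 or BMS 2 each, and 7 without ZES 2. It was 0 without the ZES pig of arrays 3 and 4 and 7 without the other ZES pig. Without the BMS pig of arrays 1 and 2 it was 1, and without the other BMS pig 6. No member lay above BMS on all 4 arrays. S100A9 was not above background on 2 BMS arrays and 1 ZES array, and its difference ran from 1.05 to 4.42 over 26 alternatives. The mean over the list was 9.63, 9.46 and 9.48 on ZES 1, 3 and 4 and 6.79 on ZES 2, against 6.96 to 8.68 with BMS.

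Monocyte and macrophage genes went both ways with ZES. Of 34 markers 22 were measured, 9 higher and 13 lower with ZES, with a median of -0.47, where 49.3% of all named genes were lower. At an unadjusted p under 0.05, 2 were higher and 2 lower, beside 4.83% and 2.92% of all named genes. FCER1G, the signalling chain of Fc receptors, read 11.91 to 13.07 with BMS and 11.03 to 11.59 with ZES, without overlap (-0.84 ± 0.31, SE; limma, adjusted p = 0.451). CD14, the lipopolysaccharide co-receptor, was 1.01 ± 0.40 (SE) higher, and MRC1, the mannose receptor, 1.59 ± 0.68 (SE) higher, both with overlap. Without BMS 3, in which this list was highest (a mean of 11.35, against 10.21 to 10.47 on the other BMS arrays), the median was -0.02.

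Among cytokines, the direction differed by gene. CCL2, the monocyte chemoattractant, read 10.80, 11.78, 11.81 and 11.54 with BMS and 12.82, 12.25, 12.83 and 12.07 with ZES. The groups did not overlap, and the difference was 1.01 ± 0.30 (SE; limma, adjusted p = 0.405), which was 2.02-fold. LTB, a membrane lymphotoxin that organises lymphoid tissue, read 4.70 to 6.23 with BMS and 7.35 to 9.07 with ZES (2.13 ± 0.58, SE; limma, adjusted p = 0.394).

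IL1B, a cytokine of activated macrophages, read 6.56, 5.13, 7.72 and 9.25 with BMS and 6.66, 3.03, 5.52 and 4.87 with ZES, below background on BMS 2, ZES 2 and ZES 4. The groups overlapped through the pig that gave BMS 1 and BMS 2, and the difference was -2.15 ± 0.88 (SE; limma, adjusted p = 0.494). A second IL1B probe set, dimmer on average, differed by 0.05, and with low values raised the brighter one differed by -1.24. IL1B was 4.32 ± 0.88 (SE) lower with ZES than with SES (limma, adjusted p = 0.0660). CXCL8, the neutrophil chemokine interleukin 8, spread from 0 on ZES 2 to 8.11 on ZES 1, and its difference of -0.34 ± 1.35 (SE) was well within that spread.

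Of 67 cytokines and chemokines 32 were measured, 20 higher and 12 lower, with a median of 0.42. At an unadjusted p under 0.05, LTB, CCL2, CCL21, IL16 (1.07) and CCL8 (0.96) were higher and IL1B was lower, beside 4.83% and 2.92% of all named genes. With the spike-in level in the model, 12 of the 32 were higher and 20 lower, 0 of them past the unadjusted threshold. Of 15 receptors measured, 10 were higher, with IL7R, IL2RA (2.81), IL2RG (1.24) and TNFRSF1A (0.96) past the unadjusted threshold, 4 of 15 beside 4.83% of all named genes. TNFRSF1A differed by 0.0028 with the spike-in level in the model. IL2RA, the inducible chain of the interleukin 2 receptor, was not above background on any BMS array and was below it on 1 ZES array; with low values raised it differed by 0.19.

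Adhesion genes that let leukocytes attach to endothelium were higher with ZES in the RCA, with a list median of 1.04, but not in the LAD, with -0.12. ICAM1 read 7.23 to 9.29 with BMS and 8.09 to 10.96 with ZES (1.47 ± 0.55, SE; limma, adjusted p = 0.451), and the difference was 2.94 in the RCA and -0.00085 in the LAD. ITGB2, the beta chain of the leukocyte integrins that bind ICAM1, read 7.72, 5.46, 9.63 and 10.17 with BMS and 11.86, 8.59, 11.13 and 10.19 with ZES (2.20 ± 0.82, SE; limma, adjusted p = 0.456). The groups overlapped, since both arrays of the second BMS pig read above ZES 2. VCAM1 was 0.71 ± 0.39 (SE) higher, with a difference of -0.32 when the spike-in level was in the model. Of 25 adhesion genes 11 were measured, 8 higher and 3 lower, with a median of 0.46, and 6 higher and 5 lower, with a median of 0.11, when the spike-in level was in the model. ICAM1, ITGB2 and ICAM2 passed the unadjusted threshold upwards, beside 4.83% of all named genes, and 0 members did so without ZES 1.

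Antigen presentation genes showed smaller differences. TAP1, which carries peptides to MHC class I, was above BMS on all 4 arrays (0.98 ± 0.36, SE), SLA-DRB1, a class II chain, was 0.87 ± 0.41 (SE) higher with overlap, and B2M, the light chain of class I, was 0.73 ± 0.29 (SE) lower, but 0.04 higher after quantile normalization. Of 28 such genes 19 were measured, 14 higher and 5 lower, with a median of 0.37. UBD, a ubiquitin-like protein induced by inflammatory cytokines, read 8.62, 8.79, 9.16 and 11.46 with BMS and 11.36 to 12.26 with ZES. It overlapped only through BMS 4, and its difference was 2.24 ± 0.51 (SE; limma, adjusted p = 0.287).

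Interferon-stimulated genes were mostly lower with ZES. IFIT1, which binds foreign RNA, read 14.24, 14.66, 14.05 and 13.61 with BMS and 11.42, 12.48, 13.38 and 13.53 with ZES. The groups did not overlap, but the ZES pig of arrays 3 and 4 lay close to BMS, and the difference was -1.44 ± 0.44 (SE; limma, adjusted p = 0.405). IFIT2 was 1.56 ± 0.46 (SE) lower and XAF1, a partner of the apoptosis inhibitor XIAP, 1.43 ± 0.41 (SE) lower, both with overlap through BMS 4. OAS1, which senses double-stranded RNA, was 1.10 ± 0.44 (SE) lower without overlap. IFIT1 and IFIT2 each have 3 probe sets, and all 6 were lower with ZES.

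Of 39 interferon-stimulated genes 21 were measured, 3 higher and 18 lower, with a median of -0.58. The unadjusted test passed for these 4 downwards and 0 upwards, beside 2.92% and 4.83% of all named genes. Both ZES pigs lay below both BMS pigs on pig means for 11 of the 21, beside 16.9% of all named genes. The mean over the list was 10.04, 10.17 and 9.98 on BMS 1 to 3 and 9.03 on BMS 4, and 8.60, 9.43, 9.54 and 9.26 with ZES. Without BMS 4 the median was -0.92, and 12 members were lower at an unadjusted p under 0.05. Without the BMS pig of arrays 1 and 2 the median was -0.30 with 2 members lower, and without the other BMS pig -0.91 with 10. Without the ZES pig of arrays 1 and 2 it was -0.50 with 1 member lower, and without the other ZES pig -0.74 with 7. With the spike-in level in the model the median was -0.12, IFIT1 differed by -0.33 and OAS1 by -0.024. The median was -1.19 in the RCA and -0.27 in the LAD.

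**Figure D3:**
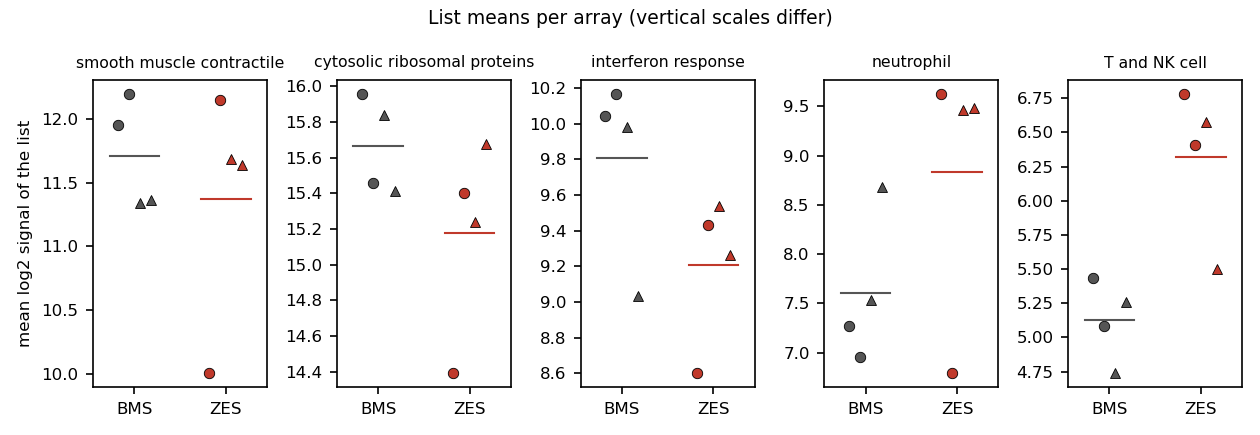
Mean log2 signal of 5 gene lists on each BMS and ZES array, 1 point per array, circles for the pig of arrays 1 and 2 and triangles for the pig of arrays 3 and 4, with the group mean as a line; the vertical scales differ between panels. ZES 1 is the lowest array for smooth muscle, ribosomal and interferon genes, ZES 2 the lowest for neutrophil genes, and only the T and NK cell panel shows no overlap.

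Smooth muscle contractile genes, the defining markers of the coronary wall, overlapped between stent types and were lowest on ZES 1. TAGLN, an actin-binding protein of contractile smooth muscle, read 15.42, 15.25, 14.27 and 14.03 with BMS and 12.76, 15.84, 14.24 and 14.94 with ZES (-0.30 ± 0.62, SE). CNN1, calponin, ranged over 10.04 to 14.08 with ZES and over 11.45 to 13.51 with BMS (-0.20 ± 0.81, SE, 95% interval -1.91 to 1.51). ACTA2, smooth muscle actin, read 15.31 to 16.17 with BMS and 13.50 on ZES 1 against 15.20 to 15.51 on the other ZES arrays (-0.82 ± 0.44, SE). In each of these genes ZES 1 was the lowest of the 8 arrays.

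Of 33 contractile genes 25 were measured, 3 higher and 22 lower, with a median of -0.29, but 20 higher and 5 lower, with a median of 0.44, when the spike-in level was in the model. Without ZES 1, 16 were higher and 9 lower, with a median of 0.22. Without the BMS pig of arrays 1 and 2 the median was 0.11. PLN, phospholamban, which brakes calcium uptake, was the 1 contractile gene past the unadjusted threshold (-1.88 ± 0.63, SE; limma, adjusted p = 0.424). That makes 1 of 25 lower, beside 2.92% of all named genes. ACTA2, CNN1 and TAGLN differed by 0.37, 0.91 and 0.73 with the spike-in level in the model. The direct comparison with SES gave CNN1 2.95 ± 0.81 (SE) higher with ZES (limma, adjusted p = 0.188).

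Matrix genes showed little common direction. The median was 0.12 over 13 collagens, 0.03 over 37 proteoglycans and glycoproteins and 0.34 over 27 proteases and inhibitors. Of the glycoproteins, SPARC, a collagen-binding protein made during repair, was 0.81 ± 0.28 (SE) lower, MGP, an inhibitor of calcification, 0.84 ± 0.32 (SE) lower, and the small proteoglycan LUM 1.04 ± 0.42 (SE) lower, all with overlap, and SPARC was 0.10 higher after quantile normalization. ACAN, the cartilage proteoglycan aggrecan, was 2.45 higher, which makes 1 of the 37 higher and 3 lower at an unadjusted p under 0.05, beside 4.83% and 2.92% of all named genes. With the spike-in level in the model, 29 of the 37 were higher. TIMP1, an inhibitor of metalloproteases, was 0.85 ± 0.29 (SE) higher. TNC, a glycoprotein of injured vessels, read 6.14 on ZES 1 and 11.5 on ZES 2, so its difference of -0.20 ± 0.97 (SE) rests on a wide spread within 1 pig. Fibronectin, FN1, differed by 0.61 ± 0.40 (SE).

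Of the 2 collagens past the unadjusted threshold, COL7A1, the anchoring fibril collagen, was 2.61 ± 1.09 (SE) higher and COL5A3 1.38 ± 0.61 (SE) higher. They make 2 of 13 collagens higher, beside 4.83% of all named genes. COL5A3 differed by 0.45 with the spike-in level in the model. COL7A1 read 2.38 on BMS 2, below background, and 6.73 to 9.26 on the other BMS arrays. The ZES arrays read 7.71 to 11.4.

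**Figure D4:**
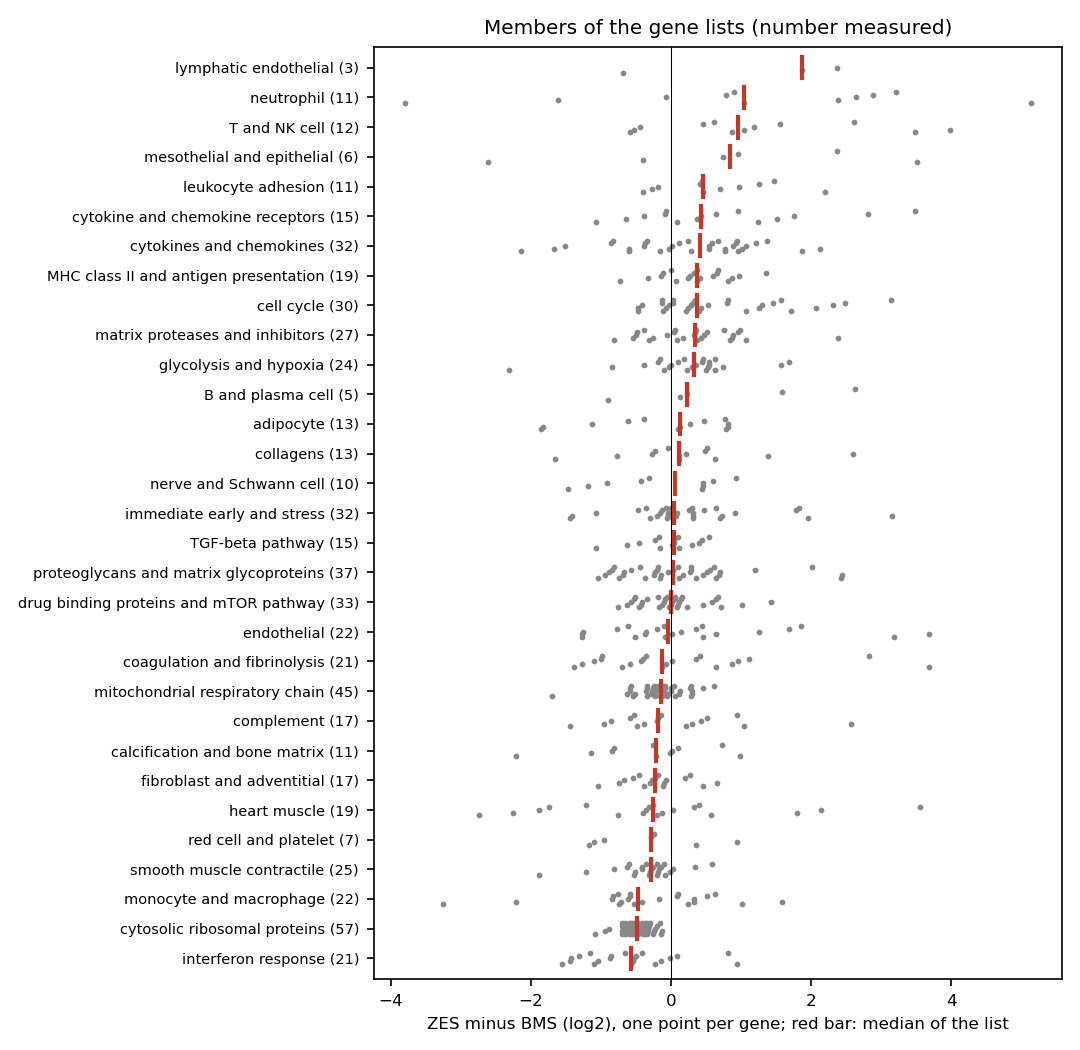
Difference between ZES and BMS (log2, horizontal axis) for each measured member of the 31 gene lists, 1 grey point per gene, with the median of each list as a red bar and the number of measured members in parentheses. Cytosolic ribosomal proteins form a narrow band below 0 on this scale (50 of 57 are above 0 with the spike-in level in the model), whereas neutrophil, endothelial and heart muscle genes spread widely on both sides of it.

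FKBP1A, the drug's binding protein, differed little. It read 11.99, 12.24, 12.63 and 12.50 with BMS and 11.97, 12.09, 12.61 and 12.57 with ZES. The difference was -0.03 ± 0.27 (SE, 95% interval -0.59 to 0.54). FKBP5, a larger immunophilin, differed by 0.09 ± 0.28 (SE) in its brighter probe set and by 2.45 in a dimmer one. FKBP1B, the close relative of FKBP1A that binds calcium release channels, read 7.05, 6.98, 7.44 and 8.52 with BMS and 9.49, 9.37, 8.37 and 8.47 with ZES. It overlapped through BMS 4, and its difference was 1.43 ± 0.50 (SE; limma, adjusted p = 0.427). Of 53 genes of drug binding and the mTOR pathway 33 were measured, 16 higher and 17 lower, with a median of -0.0033, and 26 higher and 7 lower when the spike-in level was in the model. MTOR, RPTOR, RPS6KB1 and EIF4EBP1 are not among the 33, since no probe set carries their symbol alone in the annotation used here.

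Cytosolic ribosomal proteins, whose synthesis mTOR controls through their mRNA ends, were lower with ZES on the deposited scale and mostly higher (50 of 57) with the spike-in level in the model. On the deposited scale all 57 measured of 79 were lower, from -1.08 to -0.13 with a median of -0.49, whereas 49.3% of all named genes and 50.9% of all probe sets were lower. At an unadjusted p under 0.05, 11 were lower, beside 2.92% of all named genes. RPS23 was below BMS on all 4 arrays (15.36, 16.17, 16.02 and 16.24 against 16.62 to 17.22). Its difference was -0.94 ± 0.29 (SE; limma, adjusted p = 0.405).

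After quantile normalization the median was -0.03, with 22 genes higher and 35 lower. With the spike-in level in the model it was 0.19, with 50 higher and 7 lower. Without ZES 1 the median was -0.22. The median was -1.11 in the RCA and 0.04 in the LAD.

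Cell cycle genes were more often higher than lower with ZES. Of 55 such genes 30 were measured, 22 higher and 8 lower, with a median of 0.37. RRM1, a subunit of ribonucleotide reductase, was above BMS on all 4 arrays (1.26 ± 0.42, SE; limma, adjusted p = 0.424). CCNB2, a mitotic cyclin, read 1.12 and 4.36 in one BMS pig and 8.66 and 7.64 in the other, and 7.68 to 9.35 with ZES, with a difference of 3.14 that was 1.53 with low values raised. The list followed the BMS pigs: its median was -0.23 without the BMS pig of arrays 1 and 2 and 0.99 without the other.

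Other genes with the smallest p or the widest gap belong to no common list. MT-2B, a metallothionein that binds zinc and copper, read 11.47, 11.28, 11.84 and 10.32 with BMS and 9.75, 10.19, 9.68 and 8.86 with ZES. The groups did not overlap, and the difference was -1.61 ± 0.35 (SE; limma, adjusted p = 0.265); against SES it was -1.83 (adjusted p = 0.0544). MYL1, a myosin light chain of fast skeletal muscle, read 8.62, 6.95, 5.59 and 6.25 with BMS and was not above background on any ZES array, with a fitted difference of -3.74 (limma, adjusted p = 0.287). With low values raised to the highest background, MYL1 differed by -0.98. FAM184A read 6.17 to 7.38 with BMS and 1.88 to 5.27 with ZES, below background on 3 ZES arrays, and differed by -0.59 with low values raised.

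IKBKG, the regulatory subunit NEMO of the kinase that activates NF-kB, read 6.85 to 7.87 with BMS and 10.17, 10.81, 8.65 and 8.89 with ZES, without overlap (2.22 ± 0.49, SE; limma, adjusted p = 0.265). A second, dimmer IKBKG probe set differed by 0.85, with overlap. STIM2, a calcium sensor of the endoplasmic reticulum, read 6.66 to 7.26 with BMS and 7.88 to 9.52 with ZES (1.89 ± 0.42, SE; limma, adjusted p = 0.287). With SES it read 8.78 to 9.41, and ZES and SES differed by -0.23 (95% interval -1.12 to 0.65).

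Clean gaps also occurred in genes with a narrow spread in at least 1 group. EDC3, an mRNA decapping factor, read 8.19 to 9.08 with BMS and 9.86 to 10.45 with ZES (1.32 ± 0.33, SE). Its second, dimmer probe set differed by 0.96, with overlap. NOP9, a nucleolar protein, read 6.25 to 6.46 with BMS and 7.61 to 8.83 with ZES (1.77 ± 0.51, SE). KLHL12, an adaptor of a ubiquitin ligase, read 8.37 to 8.57 with ZES and 8.98 to 10.01 with BMS (-0.99 ± 0.35, SE). SRP68, part of the signal recognition particle, read 9.90 to 10.04 with ZES and 10.43 to 11.10 with BMS, but its second probe set differed by -0.10.

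Of the immediate early genes, BTG2, an antiproliferative gene, was not above background on any BMS array and read 5.21 to 6.58 with ZES, with a fitted difference of 3.16 (limma, adjusted p = 0.360). With low values raised to the highest background, BTG2 differed by 0.21. FOS was 1.82 ± 0.78 (SE) higher and IER3 1.79 ± 0.58 (SE) higher, both with overlap. In the RCA these differences were 4.06 and 3.19, and in the LAD -0.41 and 0.38. Of the 32 genes measured of this list, 17 were higher and 15 lower, with a median of 0.05.

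**Figure D5:**
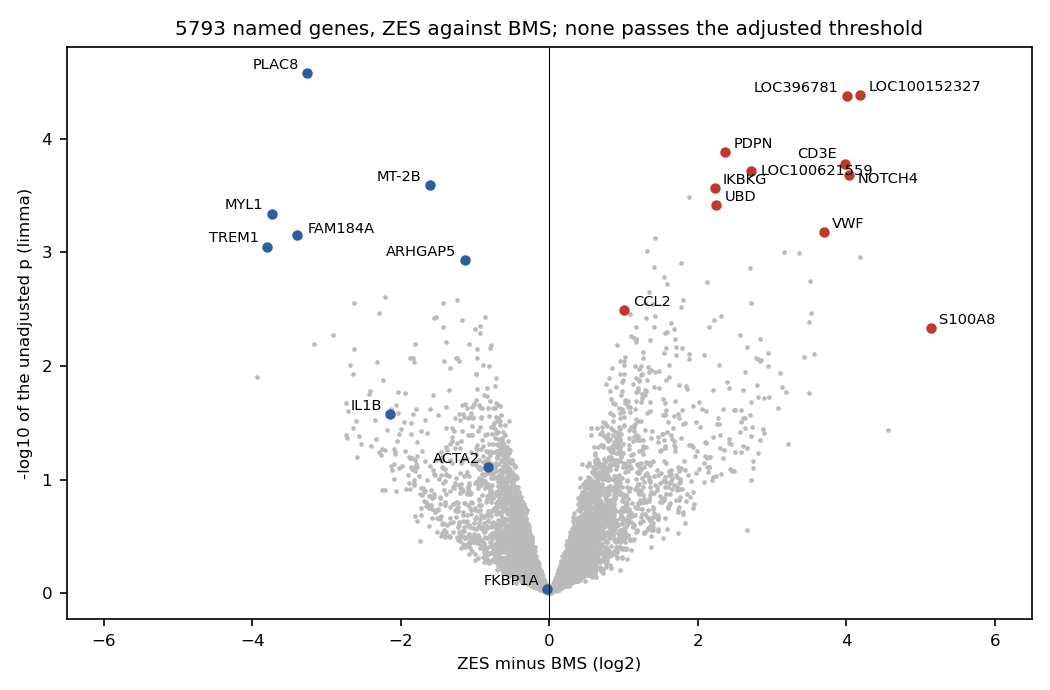
Difference between ZES and BMS (log2, horizontal axis) against -log10 of the unadjusted p from limma (vertical axis) for 5793 named genes, 1 point per gene; labelled genes are higher (red) or lower (blue) with ZES. PLAC8, LOC396781 and LOC100152327 have the smallest p, each with an adjusted p of 0.116, and FKBP1A lies near the origin.

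Markers of tissue outside the arterial wall differed in direction from gene to gene. Heart muscle genes, of which 19 of 32 were measured, were higher in 7 and lower in 12, with a median of -0.26, but higher in 12 and lower in 7, with a median of 0.86, when the spike-in level was in the model. Adipocyte genes had a median of 0.13 over 13 measured, which was -0.77 without ZES 2, 0.62 without ZES 3, -0.54 in the RCA and 0.79 in the LAD. Nerve and Schwann cell genes had a median of 0.06 over 10, which was -0.43 without BMS 3 and 0.29 without ZES 1. Of 6 mesothelial and epithelial genes measured, UPK1B was not above background on any BMS array and CLDN3 was below background on 3 ZES arrays, with fitted differences of 3.51 and -2.61, and of 0.098 and -0.36 with low values raised. PDPN is also on that list.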

How the data were processed

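Tissue from coronary segments was hybridised to Affymetrix porcine arrays. The deposited values are log2 signals that the authors made with MAS5 in Affymetrix Expression Console 5.0, per the submitters' processing notes; the sources used here do not give the settings. On the linear scale the mean of each array, after trimming 2% at each end, was 500.15 to 500.17, so overall differences in RNA amount are scaled away. MAS5 gives no detection call in the deposited table, so the 95th percentile of 59 unspiked control probe sets on an array served as its background level. A difference against a group at background has no exact size, so its value with all low signals raised to the highest background (5.96) is given beside it. The number of arrays limits the precision.

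Of 24123 probe sets, the 124 controls and the 30% with the lowest mean were removed, which left 16799. These were fitted with limma 3.58.1 (lmFit, eBayes with a variance trend, R 4.3.3) over all 12 arrays, so that the SES arrays share the estimate of the spread. The pig was a random block (statmod 1.5.0), with a consensus correlation of -0.032, and p-values were adjusted by Benjamini-Hochberg over all probe sets. No pseudocount was added. Of the probe sets, 10069 carry 1 gene symbol in the platform annotation, 198 several and 13732 none; 9961 symbols were matched to RefSeq by gene ID and 0 changed. The probe set with the highest mean stands for a gene, which gave 5793 genes.

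The genes named were the 5 markers, the 10 with the smallest p and the 8 with the widest gap in each direction, up to 4 per list by p and a fixed panel; the others were chosen after their values were seen. The members and the 31 gene lists were chosen with earlier results of these data known. Lists are described by counts and medians, with no set test. Alternatives changed the block, the unit, the artery term, weights, filter, pseudocount, floor, scaling, covariates and the arrays or pigs kept. The fit was tested on simulated data.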

Additional observations from a re-analysis of the deposited data

Results flagged for a closer look

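Single arrays stood apart from the other 3 of their stent type, by Dixon's test at 95%, in 14 of 256 groups of 4 values; chance gives about 1 in 20. On the ZES side, ZES 2 read 3.97 for S100A8 against 11.39 to 11.77, and 6.79 for the neutrophil list mean against 9.46 to 9.63. ZES 2 was also low for CLU, the chaperone clusterin (10.21). ZES 1 was low for ACTA2 (13.50) and for the mean of the drug binding and mTOR pathway list (9.56), and ZES 3 for TIE1 (6.54).

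On the BMS side, BMS 3 was low for LTB (4.70) and high for FCER1G (13.07), for IL16 (8.37) and for the mean of the drug binding and mTOR pathway list (10.16). BMS 4 was low for LUM (12.51) and for the list means of interferon (9.03) and complement genes (8.85). BMS 2 was low for RRM1 (9.89).

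In a direct test, ZES and SES differed for PLAC8 (ZES minus SES -3.34; limma, adjusted p = 0.0452) and for LOC100152327 (4.29; limma, adjusted p = 0.0461). The calls rest on 2 pigs a stent type and held in 13 (PLAC8) and 10 (LOC100152327) of 30 alternatives. Neither was called with the GAPDH difference in the model, a control that did not overlap between ZES and SES. Each comparison with BMS shares the same 4 BMS arrays. Their own values against BMS were -3.26 (ZES) and 0.08 (SES) for PLAC8, and 4.18 (ZES) and -0.10 (SES) for LOC100152327.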

How the results depend on the processing

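No pig gave arrays of more than 1 stent type, so arrays could not be paired within a pig. ZES and BMS segments could be matched by artery, and the artery was a term in an alternative model. The count of probe sets called by limma between ZES and BMS was 0 under the main setting and 3 with no filter (PLAC8, LOC396781 and LOC100152327). It was 4 and 71 without the BMS pig of arrays 1 and 2 or of arrays 3 and 4, 5 and 11 without the respective ZES pig, 0 to 4 when single arrays were left out, and 0 in all other alternatives; the cause was not tested. The count at an unadjusted p under 0.05 was 1510 and ranged from 881 to 2449. Probe sets without overlap numbered 641, and 416 when the lowest 50% were removed, where fewer were tested. Between ZES and SES, 12 were called, and 6 with arrays taken as independent, 4 on pig means, 4 with artery as a term, 0 without a variance trend, 306 with array weights, 48 with no filter, 47 with a pseudocount of 32, 1 with low values raised to the highest background, 6 after quantile normalization, 5 with spike-ins as a covariate and 0 with GAPDH ends as one. The count was 47 and 54 without the respective BMS pig, 43 without the ZES pig of arrays 3 and 4, 68 at an adjusted p under 0.1, and 4 without BMS 1 and ZES 2, a choice made after seeing the data. Leaving out single arrays gave 0 to 158, with the SES arrays left out only after seeing the data; the cause was not tested.

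Of 98 genes followed through 26 alternatives each, 12 turned direction between ZES and BMS in at least 1, all named here, and 15 passed the adjusted threshold in at least 1, most often without the BMS pig of arrays 3 and 4. CXCL8 turned from -0.34 to 0.0031 with array weights, 0.21 with the pseudocount, 0.22 with raised low values, 0.75 with the GAPDH difference, 0.24 without the BMS pig and 0.76 without the ZES pig of arrays 1 and 2, and 1.78 without BMS 1 and ZES 2. TNC turned to 0.026 with weights, 1.83 with the spike-in level, 0.068 without the BMS pig and 0.056 without the ZES pig of arrays 1 and 2. FKBP1A turned to 0.098 with weights, 0.14 with the spike-in level, 0.20 without the BMS pig of arrays 3 and 4 and 0.25 without the ZES pig of arrays 1 and 2. FKBP5 turned to -0.0057 with median centring and -0.16 without the ZES pig of arrays 3 and 4. Quantile normalization turned SPARC to 0.099, RPS6 to 0.043 and B2M to 0.036. The spike-in level turned VCAM1 to -0.32, ACTA2 to 0.37, CNN1 to 0.91, TAGLN to 0.73, RPS6 to 0.14, RPS27 to 0.073 and B2M to 0.028. B2M was 0.0039 with all probe sets averaged. Without the BMS pig of arrays 1 and 2, CNN1 was 0.60 and TAGLN 0.30, and without the ZES pig of those arrays CNN1 was 0.020. The cause of these turns was not tested. With single arrays left out, the values ran from -1.35 to 1.40 for CXCL8, -1.04 to 0.79 for TNC, -0.15 to 0.083 for FKBP1A, -0.031 to 0.24 for FKBP5, -0.83 to 0.55 for CNN1 and -0.78 to 0.27 for TAGLN.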

Other observations

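Glycolysis and respiratory chain genes had small median differences. Of 24 glycolysis and hypoxia genes measured, 16 were higher and 8 lower with ZES, with a median of 0.33. The median was 0.07 without the ZES pig of arrays 1 and 2. At an unadjusted p under 0.05, 1 was higher and 1 lower, beside 4.83% and 2.92% of all named genes. SLC2A1, the glucose transporter GLUT1, was 1.57 higher (limma, adjusted p = 0.440), and PFKM, the muscle form of phosphofructokinase, differed by -2.31 (limma, adjusted p = 0.424), and by -1.34 without ZES 4. Of 45 genes of the mitochondrial respiratory chain, 13 were higher and 32 lower, with a median of -0.14, which was -0.48 in the RCA and 0.19 in the LAD. Among all named genes 49.3% were lower. With the spike-in level in the model, and also without the ZES pig of arrays 1 and 2, 22 were higher and 23 lower. In the main setting 0 of the 45 passed the unadjusted threshold.

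The smallest p of all, 2.04e-05 (limma, adjusted p = 0.116), belonged to a probe set without a gene name in the annotation used here. It read 7.55, 7.93, 7.96 and 7.66 with BMS and 10.32, 9.35, 10.03 and 9.49 with ZES, without overlap.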
